A study of Rattus norvegicus with 18 samples.

Results

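Microglia are the resident macrophages of the brain, and the 8 genes described here are markers of that cell type and chains of the complement protein C1q, which microglia make. They are Aif1, Csf1r, C1qa, C1qb, Cx3cr1, Itgam, Tyrobp and Cd68. All probe sets whose single gene symbol in the platform's annotation was one of these names were taken, which gave 9 probe sets of 31099 on the array (8 of 14218 named genes), with a pair of probe sets for Aif1 and 1 for each other gene. Total RNA from rat brain was measured on 18 Affymetrix arrays. The groups were amygdala, hippocampus and cortex of rats given chronic immobilization stress (9 arrays, 3 per region), against the same regions of handled rats that received no stress (9 arrays, 3 per region). The labels name no strain, sex, age, stress schedule or number of animals, and they leave unsaid whether arrays of a group stand for different rats, pooled tissue or repeats of one extract, or whether regions were taken from the same rats. A p-value here speaks to array-to-array spread, possibly technical, and the small number of arrays limits the precision of every value.

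Microglia depend on signalling through the receptor encoded by Csf1r, and sense neurons through the fractalkine receptor encoded by Cx3cr1. Tyrobp encodes an adaptor that carries signals from receptors such as TREM2 into the cell, Itgam the CD11b chain of complement receptor type CR3, Cd68 a lysosomal glycoprotein and Aif1 the calcium-binding protein IBA1, widely used to stain microglia. C1q starts the classical complement pathway, and in the developing mouse brain it tags synapses for removal by microglia.

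In all, 5 of the 6 members that could be tested were higher in handled amygdala than in handled hippocampus. Of all probe sets, 28.4% were called in that contrast, 15.5% as higher in amygdala. The promoters of the C1q and Csf1r genes are shown first, and their part in that regional order was not tested. Each is the 250 bases before the gene's start, credited to RefSeq on build GRCr8, and 6 of the 8 members had an entry. C1qa lies at chr5:154419934-154420183 and C1qb at chr5:154407828-154408077, both on the minus strand, and Csf1r at chr18:56834129-56834378 on the plus strand. Capitals mark matches to GAGGAA or its reverse complement TTCCTC, a core bound by the myeloid factor PU.1, and to GGAAGT or its reverse complement ACTTCC, a core of ETS factors; no matches of the pair of motifs overlapped in these windows.
C1qa: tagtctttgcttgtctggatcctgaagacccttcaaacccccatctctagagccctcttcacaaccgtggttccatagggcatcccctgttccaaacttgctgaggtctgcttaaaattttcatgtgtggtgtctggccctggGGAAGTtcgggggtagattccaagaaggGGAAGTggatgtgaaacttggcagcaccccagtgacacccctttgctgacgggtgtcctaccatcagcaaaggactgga
C1qb: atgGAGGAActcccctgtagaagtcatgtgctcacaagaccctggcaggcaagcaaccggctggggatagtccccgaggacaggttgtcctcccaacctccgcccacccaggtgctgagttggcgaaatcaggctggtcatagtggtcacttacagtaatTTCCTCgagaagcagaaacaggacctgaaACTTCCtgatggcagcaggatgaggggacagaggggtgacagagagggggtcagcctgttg
Csf1r: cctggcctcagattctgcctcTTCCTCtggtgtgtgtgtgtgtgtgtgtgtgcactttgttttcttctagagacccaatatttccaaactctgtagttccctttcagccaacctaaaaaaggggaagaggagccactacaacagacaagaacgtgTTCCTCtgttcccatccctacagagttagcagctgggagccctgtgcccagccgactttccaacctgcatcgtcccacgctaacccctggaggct
GAGGAA was found on either strand in 4 of the 6 member promoters, against 23.3% of 33469 rat promoters of the same length, and GGAAGT in 3 of 6, against 19.2%. At least 1 of the 2 motifs was in 5 of 6, against 36.7%, and the promoter of Cx3cr1 held neither. A match is a description of letters and not of a bound site.

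The 18 arrays had median intensities of 49.1 to 56.4. One label field named the amygdala for every array, so the region was taken from the title and description and checked against marker genes. In handled arrays the amygdala markers were higher in amygdala than in hippocampus for 8 of 8, the hippocampus markers lower for 5 of 6 and higher for 1, and the neocortex markers were lower in hippocampus than in cortex for 8 of 9 and higher for 1. Between amygdala and cortex the check was partial, with 4 of 8 amygdala markers higher and 1 lower, and 4 of 9 neocortex markers lower and 1 higher. Control probe sets for RNA quality did not order the regions alike. The log2 difference between the 3′ and 5′ control probe sets of beta-actin averaged 2.07 ± 0.08 in handled amygdala, 1.54 ± 0.23 in handled hippocampus and 1.66 ± 0.05 in handled cortex (SD, n = 3 each). For GAPDH the amygdala was highest too, at 0.45 ± 0.04 in handled amygdala, 0.26 ± 0.10 in handled hippocampus and 0.29 ± 0.04 in handled cortex (SD, n = 3 each). For hexokinase the amygdala was lowest, at 0.83 ± 0.08 in handled amygdala, 1.02 ± 0.11 in handled hippocampus and 1.11 ± 0.09 in handled cortex (SD, n = 3 each). In the amygdala that difference for hexokinase was 1.23 ± 0.07 in stress arrays and 0.83 ± 0.08 in handled arrays (SD, n = 3 each). Their part in the results was not tested.

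Of the 9 probe sets, 6 passed the filter on dim probe sets, a mean intensity on the log2 scale at or above the 40th percentile of all probe sets: C1qa, C1qb, Csf1r, Cx3cr1, Tyrobp and 1 of those for Aif1. Differences are given on the scale of log2(intensity + 16), with standard errors, 95% intervals and p-values from limma adjusted by the Benjamini-Hochberg method over 18625 probe sets. A gene was called when its adjusted p was below 0.05. In bulk tissue, fewer cells of a type and less RNA per cell cannot be told apart.

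**Figure D1:**
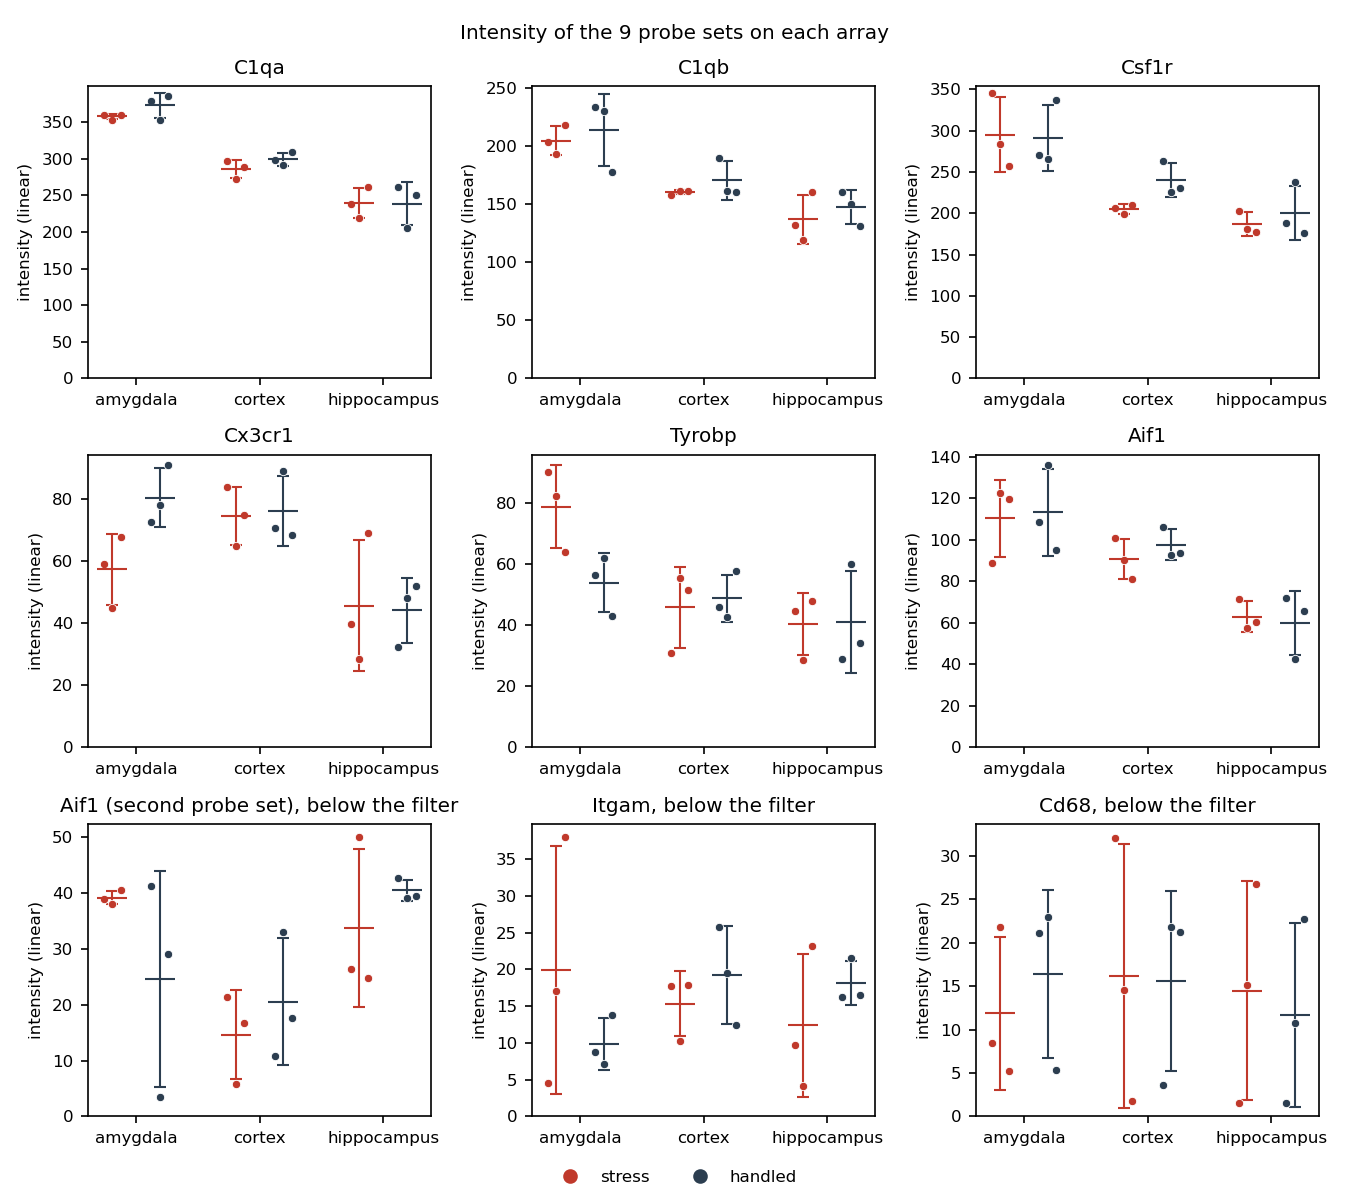
Intensity (linear scale, y axis) of each of the 9 probe sets in amygdala, cortex and hippocampus (x axis), with stress arrays in red to the left of handled arrays in dark blue; points are arrays, the wide horizontal bar is the mean and the vertical bar spans 1 SD either side (n = 3 arrays). Means of C1qa, C1qb, Csf1r, Tyrobp and the first Aif1 probe set were highest in amygdala in both treatments. The lower row holds the 3 probe sets below the filter.

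C1qa encodes the A chain of C1q. In the amygdala its intensities were 360.0, 353.3 and 360.5 in stress arrays, against 379.1, 353.7 and 386.5 in handled arrays. In the cortex they were 297.6, 273.1 and 288.8 in stress arrays, against 298.5, 291.1 and 309.0 in handled arrays, and in the hippocampus 238.9, 219.6 and 261.3 in stress arrays, against 261.3, 205.2 and 250.3 in handled arrays. Every amygdala array was above every cortex array, and every cortex array was above every hippocampus array, whichever the treatment, while stress and handled arrays overlapped within each region. Stress minus handled was -0.06 ± 0.09 in amygdala (95% interval -0.24 to 0.13), 0.01 ± 0.09 in hippocampus (-0.17 to 0.19) and -0.06 ± 0.09 in cortex (-0.24 to 0.12).

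C1qb encodes the B chain. Its amygdala intensities were 203.1, 192.5 and 217.6 in stress arrays, against 233.3, 229.8 and 177.4 in handled arrays. Cortex gave 158.0, 161.4 and 160.7 in stress arrays, against 189.7, 160.9 and 160.6 in handled arrays, and hippocampus 131.7, 118.8 and 160.1 in stress arrays, against 160.6, 149.8 and 131.3 in handled arrays. Treatments overlapped in all 3 regions, and within each treatment the amygdala arrays were all above the hippocampus arrays. The stress differences were -0.05 ± 0.12 in amygdala, -0.10 ± 0.12 in hippocampus and -0.08 ± 0.12 in cortex.

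The third chain of the molecule, C1qc, is not among the 8 genes and came from a list of 41 complement genes, of which 17 were tested. C1qc averaged 114.7 ± 10.2 in handled amygdala, 79.2 ± 2.6 in handled hippocampus and 83.3 ± 6.3 in handled cortex (SD, n = 3 each). It was higher in amygdala than in hippocampus by 0.45 ± 0.12 (adjusted p = 0.00649) and than in cortex by 0.40 ± 0.12 (adjusted p = 0.0293), so all 3 C1q chains were higher in handled amygdala than in handled hippocampus. In stress arrays amygdala minus hippocampus was 0.04 ± 0.12 for C1qc (adjusted p = 0.852). After stress C1qc was not called in any region, at -0.23 ± 0.12 in amygdala, 0.18 ± 0.12 in hippocampus and 0.02 ± 0.12 in cortex.

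C1r encodes the protease that C1q activates first, and it was the sole gene of the complement list called after stress in a region. In the cortex it had 47.4, 51.6 and 48.8 in stress arrays, against 107.5, 94.9 and 104.5 in handled arrays, with no overlap. The difference was -0.86 ± 0.17 (adjusted p = 0.0223). Of all 18625 probe sets, 0.403% were called in cortex, 0.268% as lower. The call did not survive the removal of any single cortex array (adjusted p 0.0689 to 0.129 in those 6 fits), and it was lost with no filter on dim probe sets (adjusted p = 0.0652). Over the 3 regions together C1r fell by 0.45 ± 0.10 on the log2 scale (adjusted p = 0.0084), and the difference between the hippocampus and cortex effects was not called (0.71 ± 0.24, adjusted p = 0.706).

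C1s, the protease that C1r cleaves, and Serping1, the inhibitor of both, were not called in cortex. C1s had 47.0, 34.0 and 42.7 in stress cortex, against 58.2, 54.4 and 55.5 in handled cortex, a difference of -0.34 ± 0.15 (adjusted p = 0.416). Serping1 had 38.6, 47.6 and 30.1 in stress cortex, against 55.1, 61.1 and 74.9 in handled cortex, a difference of -0.55 ± 0.26 (adjusted p = 0.472). The stress arrays of both were below all handled arrays. Non-overlap in cortex held for 23.3% of all probe sets, 11.2% with stress lower.

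Other transcripts moved in the same arrays. Of 11 tested markers of meningeal fibroblasts, 7 fell in cortex, with a median of -0.95 beside -0.01 over 10256 genes; the 7 were Igf2, Igfbp2, Lum, Ptgds, Col3a1, Ogn and Col1a2. Of 10256 genes, 0.449% were called in cortex, 0.312% as lower. The list of meningeal markers summed to between 2140.8 and 2247.2 in stress cortex, against 4891.4 to 5163.6 in handled cortex. Col1a2, a collagen chain, had 60.5, 63.0 and 66.6 in stress cortex, against 209.0, 197.8 and 190.1 in handled cortex (-1.44 ± 0.16, adjusted p = 1.64e-05). Cd74, the invariant chain of class II antigen presentation and 1 of 5 tested markers of macrophages at the brain's borders, had 41.3, 56.8 and 39.0 in stress cortex, against 113.3, 114.9 and 157.2 in handled cortex (-1.23 ± 0.17, adjusted p = 0.0003). Vim, an intermediate filament gene of the activation list, also fell in cortex (-0.61 ± 0.10, adjusted p = 0.00471), a call lost without the first stress array of cortex (adjusted p = 0.0576). Their part in the C1r value was not tested.

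**Figure D2:**
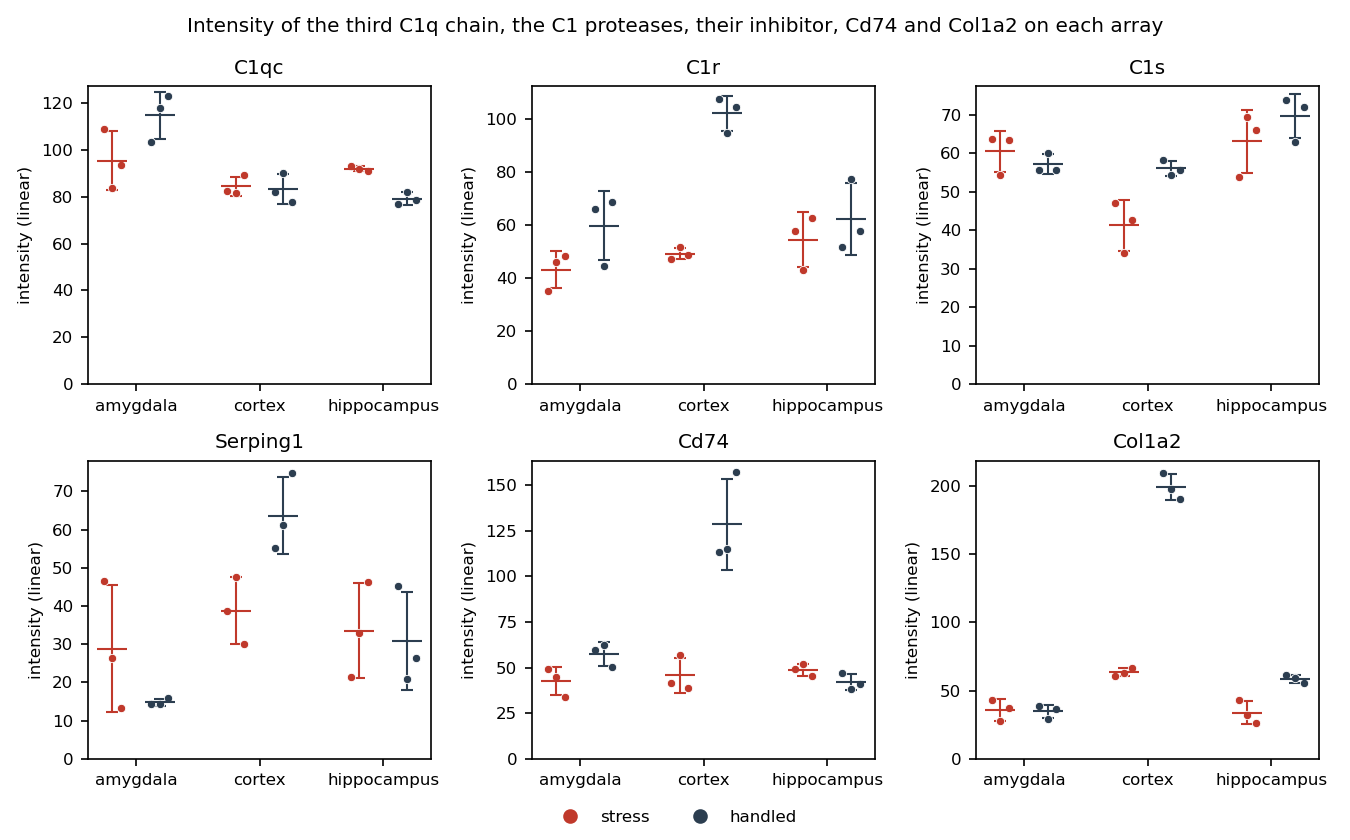
Intensity (linear scale, y axis) of C1qc, C1r, C1s, Serping1, Cd74 and Col1a2 in amygdala, cortex and hippocampus (x axis), with stress arrays in red to the left of handled arrays in dark blue; points are arrays, the wide horizontal bar is the mean and the vertical bar spans 1 SD either side (n = 3 arrays). C1r, Cd74 and Col1a2 stood highest in handled cortex, and in cortex no stress array reached a handled array for any of the 3.

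Csf1r encodes the receptor for the growth factors CSF1 and IL-34. In the amygdala it had 345.2, 283.7 and 257.1 in stress arrays, against 270.1, 265.9 and 337.2 in handled arrays. In the cortex it had 205.8, 198.6 and 210.2 in stress arrays, against 263.5, 226.0 and 230.0 in handled arrays, and in the hippocampus 203.2, 180.7 and 177.1 in stress arrays, against 188.5, 237.9 and 175.6 in handled arrays. The cortex was the region where its treatments did not overlap, with stress below handled. That difference was -0.21 ± 0.12 (95% interval -0.45 to 0.04, adjusted p = 0.585).

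Of the ligands of Csf1r, Csf1 averaged 253.8 ± 74.4 in stress amygdala and 192.1 ± 20.3 in handled amygdala (SD, n = 3 each). One stress array of amygdala, at 338.5, was above the others, at 198.8 and 224.1, and the difference of 0.34 ± 0.13 was not called (adjusted p = 0.209). Il34 averaged 228.8 ± 27.7 in stress amygdala and 235.4 ± 28.8 in handled amygdala (SD, n = 3 each), and its 3 handled regions lay within 0.08 of each other on the log2 scale. Neither ligand was called between handled regions by limma. In stress arrays, a comparison added after the data were seen, Csf1 was higher in amygdala than in cortex (0.49 ± 0.13, adjusted p = 0.0102) and than in hippocampus (0.44 ± 0.13, adjusted p = 0.013). Both differences include the amygdala array at 338.5. Csf1 had 4 probe sets, and all values given for it are from the brightest.

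Cx3cr1, the fractalkine receptor, had 59.1, 45.0 and 67.7 in stress amygdala, against 72.4, 78.1 and 90.8 in handled amygdala. Cortex gave 83.7, 64.9 and 74.8 in stress arrays, against 70.7, 89.0 and 68.5 in handled arrays, and hippocampus 39.6, 28.4 and 69.0 in stress arrays, against 32.3, 48.2 and 51.8 in handled arrays. In amygdala every stress array was below every handled array, and elsewhere they overlapped. The amygdala difference was -0.40 ± 0.20 (95% interval -0.83 to 0.02, adjusted p = 0.395), and 16.6% of all probe sets showed non-overlap there, 8.46% with stress lower. Cx3cl1, its neuronal ligand, averaged 975.4 ± 95.4 in stress amygdala and 973.4 ± 98.4 in handled amygdala (SD, n = 3 each).

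Tyrobp, the signalling adaptor, had 90.2, 82.5 and 64 in stress amygdala, against 56.5, 62.2 and 43.2 in handled amygdala. In cortex it had 30.9, 55.5 and 51.5 in stress arrays, against 46.0, 42.8 and 57.7 in handled arrays, and in hippocampus 44.7, 28.7 and 47.9 in stress arrays, against 28.9, 60 and 34.2 in handled arrays. The order in amygdala was opposite to that of Cx3cr1, with every stress array above every handled array by a margin that was small for the closest pair. The difference was 0.44 ± 0.22 (95% interval -0.01 to 0.89, adjusted p = 0.381), with 8.13% of all probe sets showing the same non-overlap. Fcer1g, the other adaptor of this kind in myeloid cells, averaged 324.0 ± 44.3 in stress amygdala and 368.1 ± 10.7 in handled amygdala (SD, n = 3 each), and was not called (-0.18 ± 0.09, adjusted p = 0.403).

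The Aif1 probe set that passed the filter had 88.9, 122.5 and 119.6 in stress amygdala, against 108.6, 136.2 and 95 in handled amygdala. In cortex it had 100.8, 90.1 and 81.3 in stress arrays, against 106.3, 92.9 and 93.8 in handled arrays, and in hippocampus 71.5, 57.5 and 60.2 in stress arrays, against 72.0, 42.5 and 65.7 in handled arrays. All hippocampus arrays were below all arrays of the other regions. Stress differences were -0.03 ± 0.16 in amygdala, 0.07 ± 0.16 in hippocampus and -0.09 ± 0.16 in cortex. The second Aif1 probe set was below the filter and did not follow that order: it spanned 3.4 to 41.3 in amygdala, 5.8 to 33.0 in cortex and 24.7 to 50 in hippocampus over the 6 arrays of each region. The regional statements on Aif1 rest on the first probe set alone.

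Itgam and Cd68 were too dim for a comparison. Itgam spanned 4.2 to 38.0 over the 18 arrays and Cd68 1.5 to 32.1, and in a fit of all probe sets without the filter neither was called in any stress contrast or between handled regions. A change in either gene was not detectable at these intensities. Itgb2, the partner chain of CD11b, was brighter and was higher in handled amygdala than in handled hippocampus (0.66 ± 0.18, adjusted p = 0.00942). Blood leukocyte markers were also dim: of 17 on the array 1, Plac8, passed the filter, while Cd3d of T cells spanned 0.8 to 20.7 and S100a8 of neutrophils 0.5 to 18.6 over the 18 arrays.

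None of the members was called after stress. Of the 6 tested, 0 passed in the amygdala, beside 2.4% of all probe sets, 0 in the hippocampus, beside 0.36%, and 0 in the cortex, beside 0.403%. For the mean over the 3 regions the count was 0, beside 4.66%. The stress effect itself was also compared between regions, and 0 of 6 were called for amygdala minus hippocampus, amygdala minus cortex and hippocampus minus cortex, beside 0.0483%, 0.129% and 0.0859% of all probe sets. At an unadjusted p under 0.05 limma likewise gave 0 of 6 in each of these 7 contrasts, where between 5.98% and 17.91% of 10256 genes passed that threshold. Arrays of the treatments did not overlap for 2 members in amygdala, beside 16.6% of all probe sets, for 1 in cortex, beside 23.3%, and for 0 in hippocampus, beside 14.2%. The widest intervals were those of Tyrobp and Cx3cr1, and the narrowest those of C1qa, whose mean over regions was -0.04 ± 0.05 (95% interval -0.14 to 0.07). With 3 arrays a group, these values cannot exclude differences inside these intervals.

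**Figure D3:**
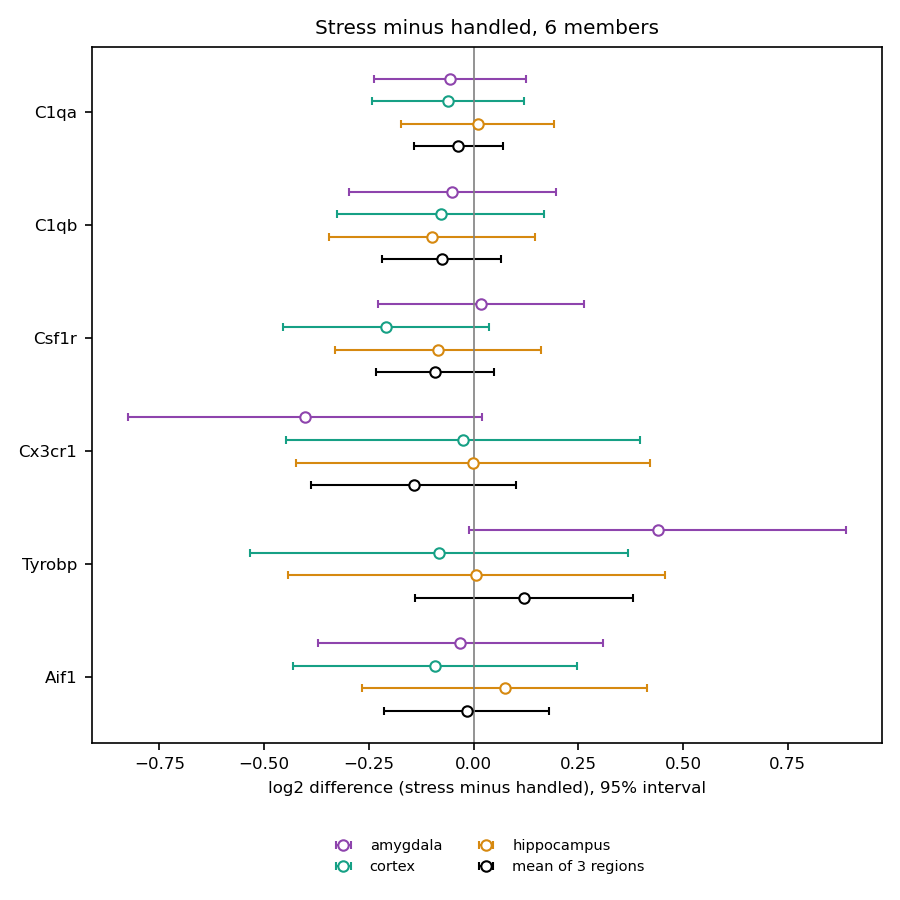
Difference between stress and handled arrays on the log2(intensity + 16) scale (x axis) for the 6 members that passed the filter (y axis), in amygdala, cortex and hippocampus and as the mean of the 3; points are limma estimates, bars 95% intervals, and open points were not called. All points are open, and Cx3cr1 and Tyrobp in amygdala lie farthest from 0, at -0.40 and 0.44.

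The wider list of microglial identity genes was chosen to hold other markers of the cell type, and 20 of its 29 genes on the array were tested. None was called after stress in amygdala, hippocampus or cortex, and at an unadjusted p under 0.05 limma counted 0, 1 and 2 of them in those regions, beside 12.77%, 10.95% and 10.68% of 10256 genes. Their medians were 0.00 in amygdala, -0.02 in hippocampus and -0.07 in cortex, beside 0.02, 0.01 and -0.01 over 10256 genes. Trem2, the receptor that signals through Tyrobp, was among the 9 below the filter, with the brighter of its probe sets between 3.2 and 62.4. Of 18 tested lysosome and phagocytosis genes none was called in a region. Over the regions together Lamp1 rose (0.15 ± 0.04, adjusted p = 0.0165) and Lamp2 fell (-0.16 ± 0.03, adjusted p = 0.00656), both lysosomal membrane proteins. For that mean over regions 4.45% of 10256 genes were called. At an unadjusted p under 0.05 limma counted 2 genes of the lysosome list in amygdala, 4 in hippocampus and 4 in cortex. The shares of all genes there were 12.77%, 10.95% and 10.68%. Among 13 tested ligands and signalling partners Grb2, an adaptor used by growth factor receptors, rose in amygdala, with 1031.2, 1001.9 and 1034.6 in stress arrays, against 779.1, 822.4 and 760.3 in handled arrays (0.37 ± 0.10, adjusted p = 0.0412). In amygdala 1.91% of 10256 genes were called, 0.488% as higher. The Grb2 call was lost without any one of the 6 amygdala arrays (adjusted p 0.0691 to 0.163). Of 12 activation genes Ptgs2, an inducible cyclooxygenase, rose over the regions together (0.38 ± 0.08, adjusted p = 0.00523), beside 4.45% of 10256 genes called. Vim fell in cortex as given above. Hbb, a globin gene of red cells, fell in all 3 regions, by 0.41 in amygdala, 0.83 in hippocampus and 0.69 in cortex on the log2 scale (adjusted p = 0.00251, 4.84e-07 and 1.34e-05). In the hippocampus the summed level of choroid plexus and ependyma genes was 3704.0 to 3946.1 in stress arrays, against 1391.3 to 1533.0 in handled arrays. That sum of intensities weighs the brightest genes most. At an unadjusted p under 0.05 limma counted 3 of the 7 tested there, all higher. The oligodendrocyte genes Bcas1 and Cldn11 fell in hippocampus, each by 0.30 on the log2 scale. The part of these transcripts in the members' values was not tested.

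Between handled regions the members differed most in amygdala against hippocampus. There 5 of the 6 were higher in amygdala, beside 28.4% of all probe sets called, 15.5% as higher in amygdala. C1qa was higher by 0.62 ± 0.09 (adjusted p = 8.60e-06), Aif1 by 0.77 ± 0.16 (adjusted p = 0.000851) and Csf1r by 0.51 ± 0.12 (adjusted p = 0.0022). C1qb was higher by 0.49 ± 0.12 (adjusted p = 0.00323) and Cx3cr1 by 0.69 ± 0.20 (adjusted p = 0.0127). Those 5 had no overlap between the 3 amygdala and 3 hippocampus arrays, which held for 39.5% of all probe sets, 20.9% with amygdala higher. Tyrobp overlapped and was not called (0.32 ± 0.22, adjusted p = 0.293). The median of the 6 was 0.56, beside 0.01 over 10256 genes.

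Hippocampus and amygdala were each also set against cortex, and these comparisons share the handled cortex arrays. In hippocampus 3 of the 6 were lower than in cortex, beside 25.9% of all probe sets called, 13.6% as lower: Aif1 (-0.60 ± 0.16, adjusted p = 0.00803), Cx3cr1 (-0.62 ± 0.20, adjusted p = 0.0257) and C1qa (-0.31 ± 0.09, adjusted p = 0.00948). The Aif1 and C1qa calls were lost without the second handled array of hippocampus (adjusted p = 0.0674 and 0.0804). The Cx3cr1 call was lost with no filter (adjusted p = 0.0528) and without the first handled array of hippocampus (0.133) or the second of cortex (0.117). In amygdala C1qa alone was called, higher than in cortex by 0.30 ± 0.09 (adjusted p = 0.0214), beside 14.7% of all probe sets, 8.14% as higher. That call was lost with each array centred on its median (0.25, adjusted p = 0.0716). For Csf1r amygdala minus cortex was 0.26 ± 0.12 (adjusted p = 0.16) and for C1qb 0.29 ± 0.12 (adjusted p = 0.104), so their order between these regions was not settled beyond the spread. Cx3cr1 was nearly level in handled amygdala and handled cortex (0.07 ± 0.20, 95% interval -0.35 to 0.49).

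The same comparisons in the stress arrays, added after the data were seen, use other arrays. Amygdala was higher than hippocampus for 5 of the 6 there, beside 27.8% of all probe sets called, 15% as higher. C1qa (0.55 ± 0.09, adjusted p = 3.72e-05), Csf1r (0.61 ± 0.12), C1qb (0.53 ± 0.12) and Aif1 (0.67 ± 0.16) were called in both treatments. Tyrobp was called in stress arrays (0.76 ± 0.22, adjusted p = 0.0108) and Cx3cr1 was not (0.29 ± 0.20, adjusted p = 0.317), the reverse of the handled arrays. The tests of those differences, given by the stress effect in amygdala minus that in hippocampus, were not called for either gene (Tyrobp 0.43 ± 0.31, adjusted p = 0.767; Cx3cr1 -0.40 ± 0.29, adjusted p = 0.77). Against cortex, 3 of the 6 were higher in stress amygdala, beside 19.8% of all probe sets called, 9.68% as higher: C1qa, Csf1r and Tyrobp. In stress hippocampus 2 of the 6 were lower than in stress cortex, C1qa and Cx3cr1, beside 25.3% called, 13.4% as lower.

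**Figure D4:**
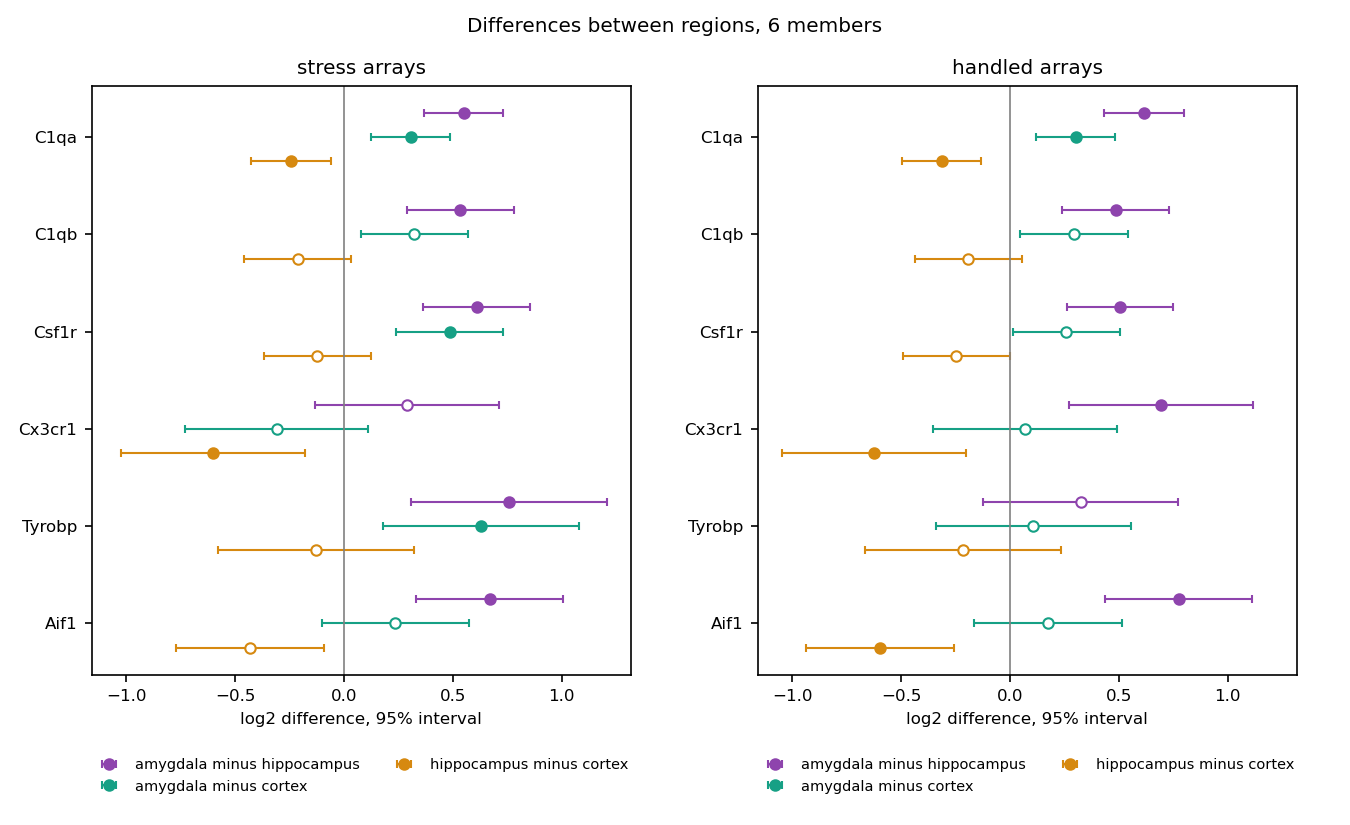
Differences between regions on the log2(intensity + 16) scale (x axis) for the 6 members (y axis), in stress arrays on the left and handled arrays on the right; points are limma estimates, bars 95% intervals, and filled points were called at an adjusted p below 0.05. Amygdala minus hippocampus is above 0 for all 6 members in both panels, and hippocampus minus cortex is below 0 for all 6.

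Other microglial identity genes were set beside the members. In handled amygdala against handled hippocampus 9 of the 20 tested were higher, 1 was lower and 10 were not called, with a median of 0.36. Of 10256 genes, 29.7% were called in that contrast, 15.7% as higher and 14% as lower. The 9 were P2ry12, an ADP receptor of microglia, Ctss, a lysosomal protease, Fcer1g, Cd53, Laptm5, Lcp1, Gpr34, Itgb2 and Sall1, a transcription factor of microglial identity, and the lower gene was Coro1a, an actin regulator also made by neurons. P2ry12 averaged 314.4 ± 7.3 in handled amygdala and 197.1 ± 21.5 in handled hippocampus (SD, n = 3 each), a difference of 0.64 ± 0.09 (adjusted p = 1.14e-05), and its second probe set gave 0.59 ± 0.15. Ctss averaged 2211.7 ± 49.5 in handled amygdala and 1369.2 ± 82.8 in handled hippocampus (SD, n = 3 each), a difference of 0.69 ± 0.08 (adjusted p = 2.13e-07). In handled amygdala against handled cortex 4 of the 20 were higher, namely Lcp1, Cd53, Fcer1g and Ctss. Of 10256 genes, 14.7% were called there, 7.67% as higher. In handled hippocampus against handled cortex 4 were lower, Ctss, P2ry12, Laptm5 and Fcer1g, and 1 was higher, Coro1a. For that contrast 27.9% of 10256 genes were called, 14.8% as lower and 13.1% as higher, so the list's count lay near that share.

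Phagocytic and ligand genes were set beside them in the same contrast, in which 29.7% of 10256 genes were called, 15.7% as higher in amygdala and 14% as lower. Of 18 lysosome and phagocytosis genes 5 were higher in handled amygdala than in handled hippocampus and 1 was lower, so their calls lay near the 29.7%. Their median was 0.06, beside 0.01 over 10256 genes. Lyz2, a lysozyme of macrophages, was higher by 1.07 ± 0.10 (adjusted p = 1.43e-08), Mfge8, which bridges phagocytes to dying cells, by 0.82 ± 0.11 (adjusted p = 5.96e-06) and Axl, a receptor for dying cells, by 0.57 ± 0.10 (adjusted p = 0.000103). Of 13 ligands and partners 3 were higher, among them Cx3cl1 (0.32 ± 0.09, adjusted p = 0.00829) and Cd200, a neuronal signal that restrains microglia (0.59 ± 0.08, adjusted p = 7.71e-06), and 2 were lower, Fyn and Cd47. Cx3cl1 and its receptor Cx3cr1 therefore both stood higher in handled amygdala than in handled hippocampus, and both stood lower in handled hippocampus than in handled cortex. Of the 17 other complement genes tested 2 were higher, C1qc and C3, and 1 was lower, Masp1.

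Markers of other cell types were compared between the same handled regions. Of 10256 genes, 29.7% were called in that contrast, 15.7% as higher in amygdala and 14% as lower. Of 13 oligodendrocyte genes 12 were lower in amygdala than in hippocampus, with a median of -0.46. Of 11 astrocyte genes 6 were higher and 1 lower, and their sum was between 26980.2 and 27575.4 in handled amygdala, against 24395.9 to 25140.1 in handled hippocampus. Of 15 endothelial and mural genes 3 were higher, near the share of all genes called as higher. Their sum was 1839.0 to 1898.0 in handled amygdala, against 1534.9 to 1592.8 in handled hippocampus. The microglial identity list summed to between 5136.1 and 5330.2 in handled amygdala, against 3688.6 to 3905.4 in handled hippocampus. The part of these other cells in the members' values was not tested.

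**Figure D5:**
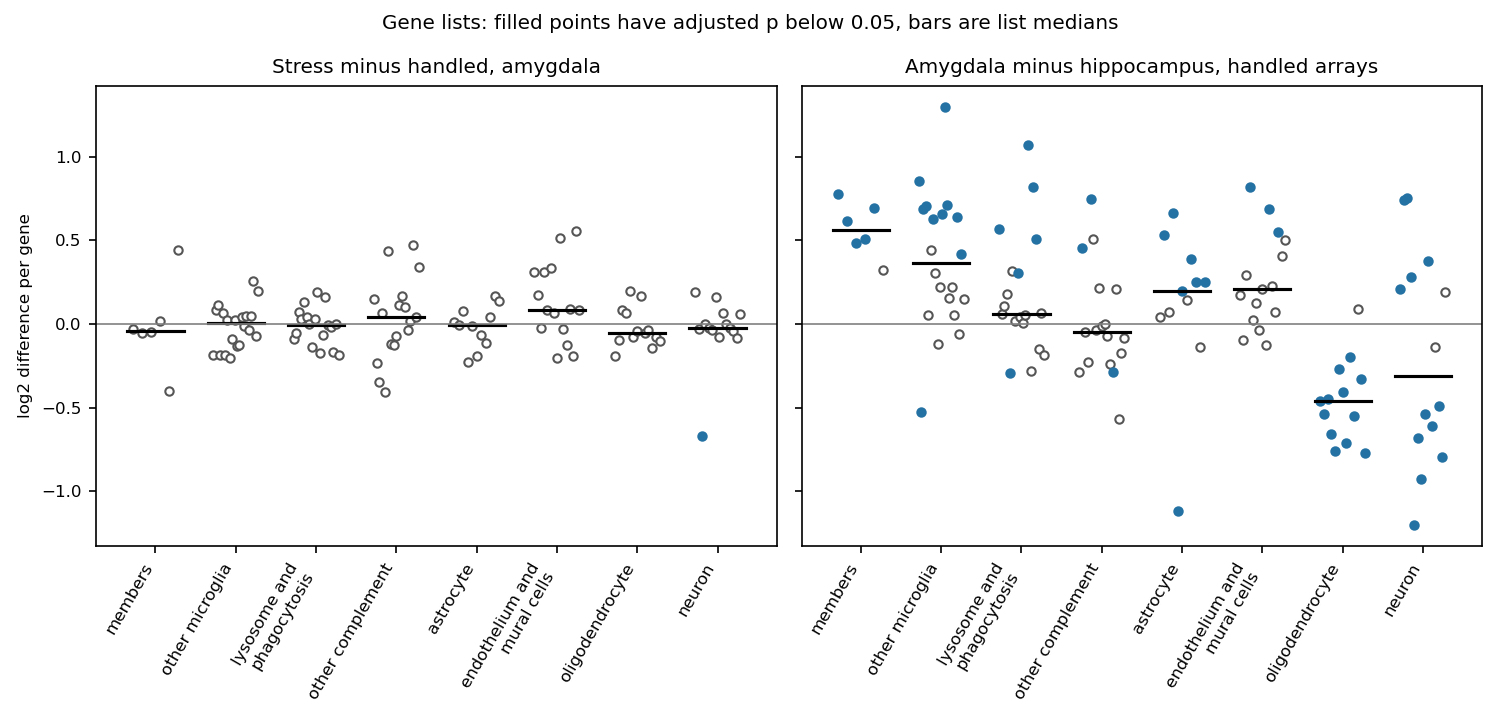
Log2 differences per gene (y axis) for the 6 members and 7 other gene lists (x axis), for stress minus handled in amygdala on the left and amygdala minus hippocampus in handled arrays on the right; filled points were called at an adjusted p below 0.05 and bars are list medians. On the left the members' median is -0.04, and on the right the members' median is 0.56, other microglial genes 0.36 and oligodendrocyte genes -0.46.

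Members were also compared for how they varied together. Over the 18 arrays the 15 pairs of members had Pearson correlations between 0.22 and 0.861, with a median of 0.588, highest for Aif1 with C1qa and lowest for Cx3cr1 with Tyrobp. These points share 3 regions and 2 treatments, and once group means were removed the 15 correlations lay between -0.619 and 0.381, with a median of 0.115 and 9 above 0. The genes most like the mean of the members over the 18 arrays were Trim54 (r = 0.968), Drc3 (r = 0.965) and Drd1, a dopamine receptor of neurons (r = 0.959), none of them on the microglial list. With group means removed the closest were Cops2 (r = 0.857), Atg16l2 (r = 0.851) and Ube2l3 (r = 0.836), and Ctsz, a lysosomal protease of the lysosome list, was the fifth (r = 0.813). These correlations are descriptions over 18 arrays.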

How the data were processed

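Total RNA of rat amygdala, hippocampus and cortex was measured on 18 Affymetrix arrays (6 groups of 3). The deposited values were 1 intensity per probe set and array. The trimmed mean (2% off each tail) was equal on all arrays, so the values had been scaled before the authors deposited them; the summary software is not given in the sources used here. Controls (57 probe sets) were left out. The platform annotation gave 1 symbol to 20832 probe sets, several to 436 and none to 9831.

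Values were taken as log2(intensity + 16). Probe sets whose mean log2 value reached the 40th percentile (an intensity of 30.11) were kept, and 18625 remained, for 10256 genes. One limma fit (version 3.58.1, R 4.3.3) with a mean for each of the 6 groups and a trended variance (12 residual and a median of 10.2 prior degrees of freedom) gave every contrast, with Benjamini-Hochberg adjustment over 18625 probe sets and a threshold of 0.05. It was tested on simulated data. The 10 alternatives and the 18 fits that left out 1 array each are described at the end.

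The members and gene lists were chosen with earlier results of these data known, and list medians are descriptions with no test. All member probe sets are named. In other lists, 1 probe set a gene (highest mean) was counted, and genes called after stress or with the smallest p were named; other genes were chosen after their values were seen. Genes most alike were those with the highest Pearson r to the mean of the standardised members. The labels do not state that array numbers shared by groups pair the arrays, and the main fit used no pairing. Of 27 same-number pairs, 0 had deviations from their group means correlated over 0.1 (range -0.044 to 0.1). Pairs with different numbers were not compared, so these values cannot settle whether arrays were paired. Promoters came from RefSeq (GRCr8).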

Additional observations from a re-analysis of the deposited data

Results flagged for a closer look

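The stress effect on Cd74 differed between hippocampus and cortex, by 1.39 on the log2 scale in the limma test of the difference itself (adjusted p = 0.0112). The call was lost without the third stress array of cortex (adjusted p = 0.062) and without the third handled array of cortex (adjusted p = 0.0711).

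For C8g, a complement gene, every stress array was above every handled array in amygdala (0.43) and below every handled array in cortex (-0.54). It was flagged for that opposite order. Of all probe sets, 8.13% had stress above handled in amygdala without overlap, and 11.2% had stress below handled in cortex. The limma test of amygdala minus cortex for C8g was not called (0.97, adjusted p = 0.239).

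For Cd53, a membrane protein of microglia and other leukocytes, every stress array was above every handled array in cortex (0.3) and below every handled array in amygdala (-0.18). Of all probe sets, 12.1% had stress above handled in cortex without overlap, and 8.46% had stress below handled in amygdala. The limma test of amygdala minus cortex was not called (-0.48, adjusted p = 0.412).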

How the results depend on the processing

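No member was called after stress under any of the 9 planned settings or without any 1 of the 18 arrays. Over these settings the adjusted p in amygdala was 0.287 to 0.649 for Cx3cr1 and 0.265 to 0.674 for Tyrobp, and in cortex 0.187 to 0.854 for Csf1r. Amygdala above hippocampus held for Aif1, C1qa, C1qb and Csf1r in every setting tried, stress arrays included, and for Cx3cr1 in handled arrays in 24 of 26; it was lost without amygdala handled 3 (adjusted p = 0.0579) or hippocampus handled 1 (0.0744). C1qa above cortex in amygdala was lost with median centring (0 members called) and without amygdala handled 1 or 3 or cortex handled 1 or 2 (adjusted p 0.0616 to 0.0792), and C1qb was gained without amygdala handled 3. In the comparison chosen after seeing the data, the stress arrays, 3 members were called there. Hippocampus below cortex was lost for Cx3cr1 with no filter (0.0528) and without hippocampus handled 1 (0.133) or cortex handled 2 (0.117), and for Aif1 and C1qa without hippocampus handled 2 (0.0674 and 0.0804), where Csf1r was gained (0.0323). Members called without 1 array ranged from 0 to 1 for amygdala minus cortex, 2 to 3 for hippocampus minus cortex and 4 to 5 for amygdala minus hippocampus.

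Counts over all probe sets moved more. With no filter, 48 were called in cortex (75 as reported), 3 for the difference in stress effect between amygdala and hippocampus (9) and 15 for that between amygdala and cortex (24). With no variance trend, these were 43, 3 and 9, with 32 in hippocampus (67) and 570 for the mean (868). With only the arrays of the regions compared, 186 were called in amygdala (447), 20 in hippocampus, 560 in cortex and 4 for amygdala minus hippocampus, for which the 60th percentile gave 16 and median centring 15. Median centring split handled amygdala minus cortex into 1093 higher and 1687 lower (1516 and 1222 as reported), and stress in hippocampus into 25 and 25 (19 and 48). Without 1 array, counts ranged from 197 (without amygdala handled 3) to 535 in amygdala, 27 to 120 in hippocampus and 34 to 167 in cortex, and for differences in stress effect from 3 to 18 (amygdala minus hippocampus), 11 to 45 (amygdala minus cortex) and 10 to 18 (hippocampus minus cortex). The replicate block gave 421 in amygdala, 61 in hippocampus, 54 in cortex and 852 for the mean; it changed no member count.

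A change of sign was counted only where the reported or the alternative value was called. No member had one; uncalled member values did change sign, such as Cx3cr1 for amygdala minus cortex (0.07 in handled arrays, -0.31 in stress arrays). Other named genes had 8, in stress in place of handled arrays: Csf1 (0.489), Vim (0.161) and C8g (0.698) for amygdala minus cortex, C1r (0.101), Cd74 (0.08) and C8g (0.3) for hippocampus minus cortex, and Csf1 (0.441) and Col1a2 (0.064) for amygdala minus hippocampus. These 8 come from other arrays under the other treatment, and not from a change of processing. The limma tests of the stress effect between regions address the same differences. Of these genes only Cd74 was called there, for hippocampus minus cortex (1.39, adjusted p = 0.0112). The cause was not tested. Signal near background limits Itgam, Cd68 and the second Aif1 probe set.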
